A study of Mus musculus with 16 samples.

Results

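Collagens are secreted trimers that form fibrils, networks and filaments, and the small leucine-rich proteoglycans bind to collagen fibrils and regulate their spacing and growth. In the brain most fibrillar collagen lies in the meninges and around larger vessels, and collagen IV is a core component of the basement membrane of capillaries. The genes described here are the rows of the deposited tables whose symbol is that of a collagen alpha chain, together with 7 small leucine-rich proteoglycans (Dcn, Lum, Omd, Ogn, Prelp, Fmod and Bgn) and Loxl2, a lysyl oxidase-like enzyme that cross-links collagen. They were chosen by name and not by their values. There are 52 of them among 22880 gene rows: 44 collagen genes, the 7 proteoglycans and Loxl2. Each of the 52 reached a normalized count of 10 in at least 4 of the 16 libraries.

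Total RNA was sequenced from the brain cortex of 16 individual mice, all of an F1 C57Bl6/J x Sv129 background. The design crosses genotype, BK deficient (KO) or wildtype littermate (WT), with 4 h of sleep deprivation (SD) by gentle handling from light onset or an undisturbed baseline (BL). The groups are named WT_BL, WT_SD, KO_BL and KO_SD, with 4 mice in each, and brains were taken at zeitgeber time 4 h in each group. Kcnma1 encodes the pore-forming subunit of BK, a potassium channel opened by calcium and depolarisation. Mice were housed in groups of 2, and the sources used here do not give their age, their sex, the deleted part of the gene or the cells lacking it. The study asked how 4 h without sleep changes cortical RNA and whether that change differs without BK channels.

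The libraries held 8.76 to 30.5 M recovered reads, with a median of 19.3 M. Kcnma1 was counted at 822.7 to 1889 normalized counts in the WT libraries and at 432.2 to 2156 in those labelled KO, ranges that overlap. Since the deleted part is not given, this whole-gene count does not check the genotype labels. KO_BL 1, KO_SD 1 and KO_SD 4 stood apart from the other libraries over all genes. Their median absolute log2 deviations from the gene medians were 0.207, 0.277 and 0.302, against 0.0998 to 0.159 in the other 13. Cortical excitatory neuron markers summed to between 31694 and 45392 normalized counts per library, and striatal neuron markers to between 4877 and 25913. The choroid plexus gene Ttr stood at 10770 in WT_BL 1, 5432 in WT_SD 4 and 2922 in WT_BL 2, and between 9.87 and 1018 in the other libraries. The labels name the tissue as brain cortex; the sources used here do not say how it was dissected.

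Promoter windows are shown for genes that the results below turn on: the divergent collagen IV pair, the fibrillar genes Col1a2 and Col3a1, each correlated with Col1a1 over the libraries, and Col6a6, the only one of the 52 genes called by the main limma test. Each runs 5′ to 3′ on the strand of its gene, from 250 bases before to 50 bases after the start in RefSeq (build GRCm38.p6). Col4a1 lies at chr8:11312777-11313076 on the minus strand, Col1a2 at chr6:4505368-4505667 on the plus strand, Col3a1 at chr1:45311288-45311587 on the plus strand and Col6a6 at chr9:105828036-105828335 on the minus strand. Capitals mark each CCAAT box (CCAAT or its reverse complement ATTGG) and each TATA box (TATAAA or its reverse complement TTTATA). These motifs share no overlap here.
Col4a1: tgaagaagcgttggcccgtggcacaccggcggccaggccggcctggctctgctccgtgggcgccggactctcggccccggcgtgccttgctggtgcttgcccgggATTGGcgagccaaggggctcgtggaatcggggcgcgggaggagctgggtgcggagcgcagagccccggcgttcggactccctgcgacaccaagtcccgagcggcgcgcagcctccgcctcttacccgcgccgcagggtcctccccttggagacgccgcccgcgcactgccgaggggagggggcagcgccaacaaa
Col1a2: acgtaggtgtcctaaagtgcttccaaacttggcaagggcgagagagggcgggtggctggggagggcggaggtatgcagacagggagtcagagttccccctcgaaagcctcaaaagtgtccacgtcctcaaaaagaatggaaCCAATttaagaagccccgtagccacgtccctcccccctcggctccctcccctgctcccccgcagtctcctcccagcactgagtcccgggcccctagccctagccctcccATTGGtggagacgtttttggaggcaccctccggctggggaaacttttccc
Col3a1: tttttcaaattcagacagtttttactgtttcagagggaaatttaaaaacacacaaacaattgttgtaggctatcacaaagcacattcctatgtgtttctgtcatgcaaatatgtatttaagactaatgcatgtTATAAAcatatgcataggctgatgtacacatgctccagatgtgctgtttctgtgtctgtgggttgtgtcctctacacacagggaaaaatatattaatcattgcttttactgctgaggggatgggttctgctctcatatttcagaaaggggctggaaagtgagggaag
Col6a6: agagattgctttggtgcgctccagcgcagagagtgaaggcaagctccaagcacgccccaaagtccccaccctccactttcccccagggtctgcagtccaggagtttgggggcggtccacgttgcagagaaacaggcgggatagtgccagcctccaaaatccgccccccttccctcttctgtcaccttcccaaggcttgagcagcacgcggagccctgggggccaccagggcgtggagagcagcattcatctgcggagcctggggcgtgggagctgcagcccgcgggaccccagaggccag
The start sites of Col4a1 and Col4a2 lie 21 bases apart on opposite strands, so the first window also holds the start of Col4a2. It has 1 CCAAT box, read on the opposite strand, 145 bases before the Col4a1 start. Col1a2 has a CCAAT box 109 bases before its start, and a second on the opposite strand at the start itself. Col3a1 has a TATA box 117 bases before its start, and neither motif occurs in the Col6a6 window. RefSeq windows were matched for 40 of the 52 genes, of which 15 (37.5%) held a CCAAT box in at least 1 window. Among all 32851 promoter windows, 37.4% held one. A TATA box occurred for 6 of the 40 genes (15%) and in 13.6% of all windows, so these shares were close to those of all promoters.

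Levels were compared between genes per transcript length, as FPKM over the 16 libraries. Col1a1 (62.8 ± 18.5 FPKM, SD, n = 16) and Col3a1 (46.7 ± 11.3) headed the order, as chains of the main tissue fibrils, with Bgn (biglycan, 45.5 ± 8.30), Col1a2 (42.4 ± 9.96) and Col6a1 (38.5 ± 11.3). The collagen IV chains of all basement membranes followed, Col4a2 at 25.1 ± 4.08 FPKM and Col4a1 at 17 ± 2.17. Next came Col25a1 (15 ± 4.08), a transmembrane collagen of neurons, and Dcn (decorin, 14.5 ± 6.88). The lowest was Col6a6 at 0.0948 ± 0.0619 FPKM. In all, 11 of the 52 genes had a mean of at least 10 FPKM, 36 had at least 1, and 16 were below 1. Their median was 2.69 FPKM, against 11.8 over the 14604 genes with 10 or more normalized counts in 4 libraries. Of the 51 neighbouring pairs in this order, 48 differed by less than the larger SD. The exceptions were Col6a1 above Col4a2, Col4a2 above Col4a1, and Col27a1 (1.67 ± 0.288) above Col22a1 (1.11 ± 0.274). Genes share their libraries, so this SD does not measure the difference of 2 genes within a library. Col1a1 stood at 1.06 to 1.64 times Col3a1 in FPKM over the libraries, though this pair is among the 48.

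**Figure D1:**
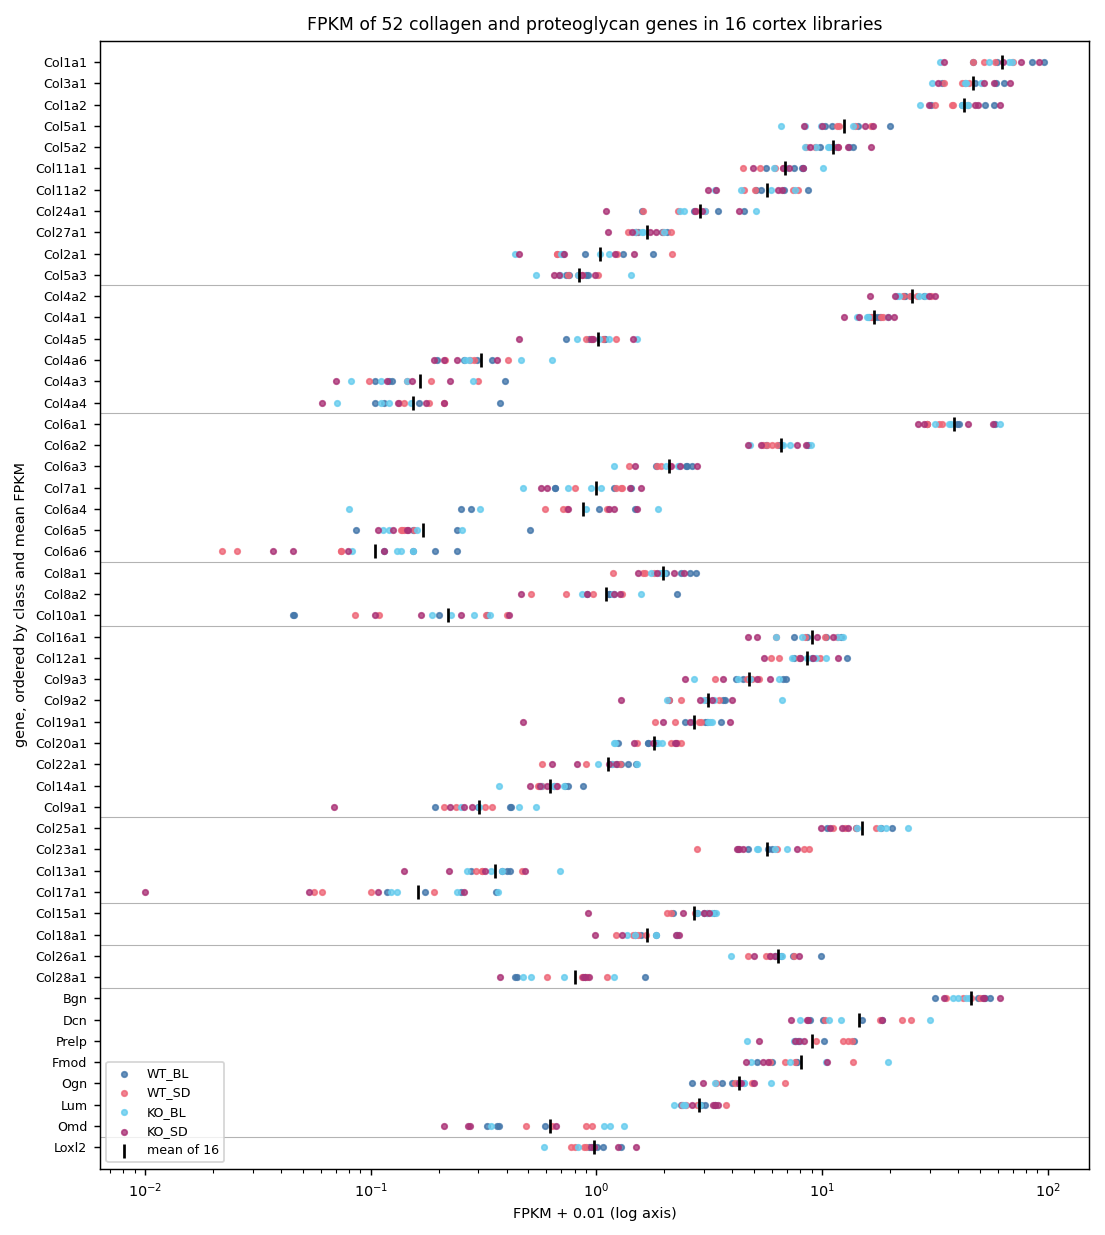
FPKM + 0.01 (log axis) of the 52 genes in each of the 16 libraries; points are libraries coloured by group, ticks the mean of 16, and lines separate classes (fibrillar, IV, VI and VII, VIII and X, fibril-associated, transmembrane, multiplexin, XXVI and XXVIII, proteoglycans, Loxl2). Col1a1 heads the order at 62.8 FPKM and Col6a6 is lowest at 0.0948.

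The spread over libraries differed between genes. The highest library stood under 2 times the lowest for 8 genes, between 2 and 5 times for 32, and at 5 times or more for 11. Col4a1 (890.2 to 1460 normalized counts) and Lum (lumican, 89.1 to 148) varied least, by 1.64 and 1.66 times. Col6a4 (4.45 to 118.2), Col6a6 (1.55 to 30.4) and Col10a1 (2.08 to 24.7) varied most among the genes with reads in every library, and Col17a1 was listed at 0 in KO_SD 4. Of the 52 genes, 34 had their lowest value in KO_BL 1, KO_SD 1 or KO_SD 4, against 18 in the other 13 libraries. These 3 libraries also deviated most over all genes. No share over all genes stands beside this count, so it does not set the 52 genes apart. The deviations of all genes in KO_BL 1 and KO_SD 1 fell with GC content (Spearman's rho across genes -0.57 and -0.64) and rose with length (0.26 and 0.34). Those in KO_SD 4 fell with length (-0.47). Such trends were not limited to these libraries. With GC content rho was -0.44 in WT_SD 1 and 0.43 in WT_SD 2, and with length it was -0.37 in WT_SD 2. Genes are not independent replicates. The 52 genes were longer (median 2935 bases against 1990 over all genes above the minimum) and slightly richer in GC (53.2% against 50.9%).

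**Figure D2:**
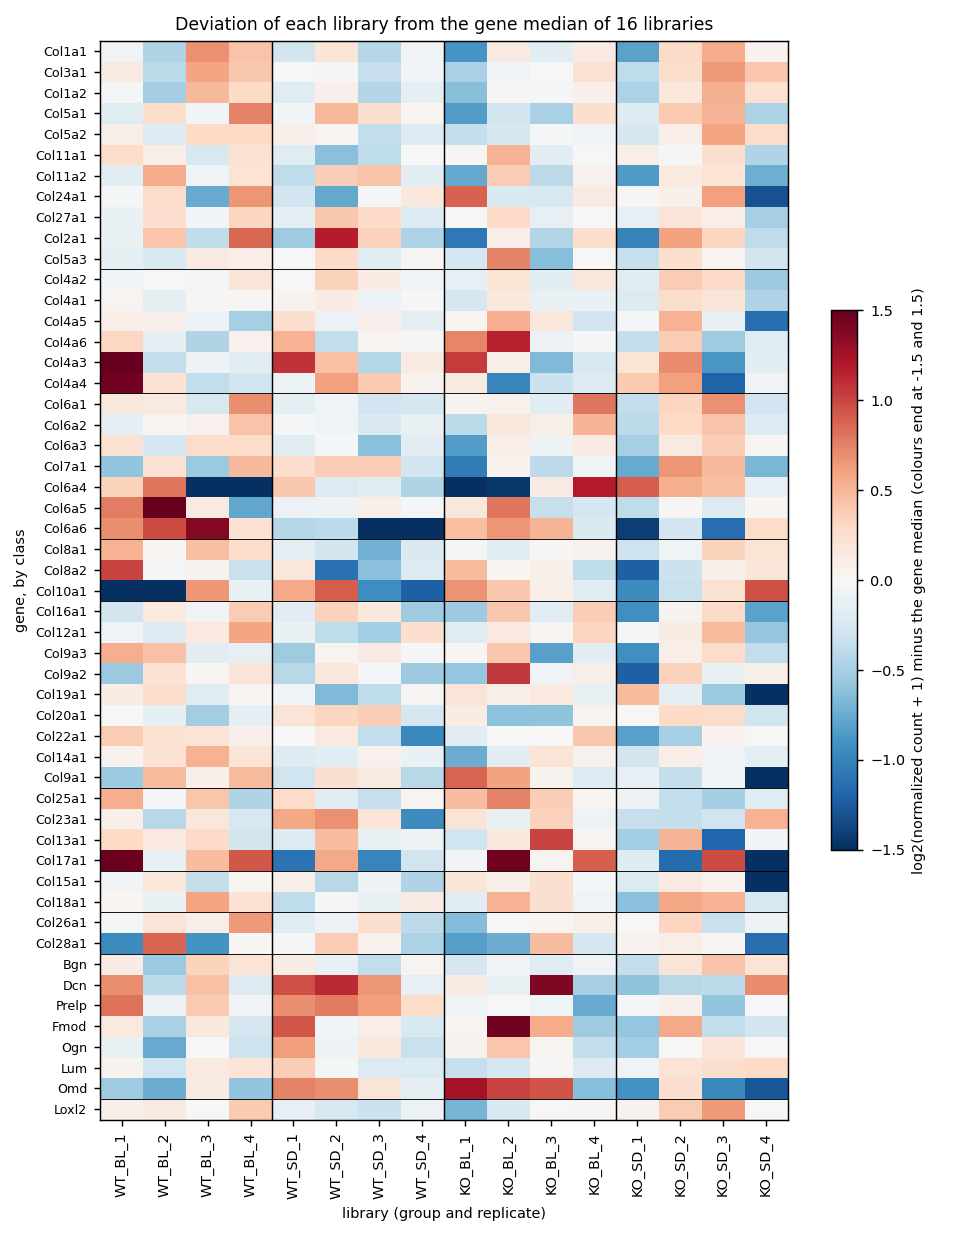
Each cell is the log2(normalized count + 1) of a gene in a library minus its median over the 16 libraries (red higher, blue lower, colours end at -1.5 and 1.5); vertical lines separate the groups and horizontal lines the classes. The median deviation of the 52 genes is lowest in KO_SD_1 (-0.34), KO_SD_4 (-0.18) and WT_SD_4 (-0.14), ahead of KO_BL_1 (-0.10).

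Of 8 tested pairs of chains that assemble in 1 trimer, 3 were correlated from library to library: Col1a1 with Col1a2, Col4a1 with Col4a2, and Col6a1 with Col6a2. Correlations were taken over the 16 libraries on deviations from the group means, so that group differences do not enter, with p from 100000 permutations within groups and adjustment over 15 pairs. The pair Col3a1 and Col5a2 was added after values were seen. Col1a1 and Col1a2, the chains of type I collagen, had r = 0.97 (adjusted permutation p = 0.000225) and Spearman's rho = 0.95 (adjusted permutation p = 0.00045), on different chromosomes. Col1a1 stood at 1.46 ± 0.147 times Col1a2 in FPKM (SD, n = 16). Col1a1 and Col3a1 had r = 0.93 (adjusted permutation p = 0.0013) and rho = 0.80 (adjusted permutation p = 0.019). Col3a1 and Col5a2, neighbours on chromosome 1 with 24614 bases between them, had r = 0.91 (adjusted permutation p = 0.00015) and rho = 0.89 (adjusted permutation p = 0.000525). The raw p of that r, 1e-05, is the smallest that these permutations can give.

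Col4a1 and Col4a2, transcribed apart from the shared start region printed above, had r = 0.88 (adjusted permutation p = 0.0174) and rho = 0.80 (adjusted permutation p = 0.0543). Col4a1 stood at 0.683 ± 0.0557 times Col4a2 in FPKM (SD, n = 16). The annotated genes overlap by 22 bases, and the strandedness of the libraries is not given, so reads inside that overlap cannot be assigned to a strand. Col6a1 and Col6a2, chains of type VI collagen, had r = 0.80 (adjusted permutation p = 0.0403) and rho = 0.74 (adjusted permutation p = 0.0543). The other 10 pairs did not pass, among them Col4a3 and Col4a4 (r = 0.64), Col6a1 and Col6a3 (0.48), Col4a5 and Col4a6 (0.43), Dcn and Lum (0.57), Fmod and Prelp (0.60), Ogn and Omd (0.54), Col5a1 and Col5a2 (0.34) and Col11a1 and Col11a2 (0.23). Col1a1 and Dcn, whose product binds collagen fibrils, had r = 0.08 and rho = -0.03. Without the 2 libraries farthest from the median, r of the 5 passing pairs was 0.95, 0.87, 0.85, 0.72 and 0.67 in the order given. Without KO_BL 1, KO_SD 1 and KO_SD 4 it was 0.96, 0.89, 0.87, 0.76 and 0.82. The median r over all 1326 pairs of the 52 genes was 0.14, a description only, since the pairs share libraries, depth and composition.

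**Figure D3:**
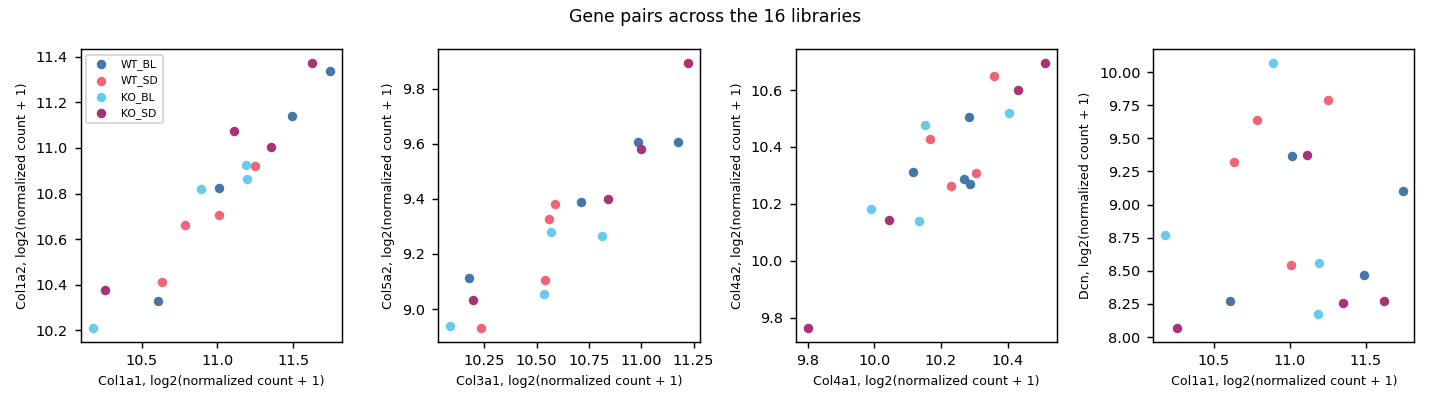
Each panel plots log2(normalized count + 1) of 1 gene against another in the 16 libraries, coloured by group. Col1a1 with Col1a2, Col3a1 with Col5a2 and Col4a1 with Col4a2 lie along a line, while Col1a1 with Dcn does not.

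In WT mice no collagen or proteoglycan gene passed the test after sleep deprivation. With limma on log2(normalized count + 1) and Benjamini-Hochberg adjustment over 14310 genes, 0 of 50 were called at an adjusted p under 0.05, against 1.36% of all genes tested. At an unadjusted p under 0.05 there were 9 of 50, against 17.4% of all genes, a share near the background. DESeq2 on recovered reads called 2 (Col6a6 and Col8a1) and edgeR's quasi-likelihood test 0. Over all genes DESeq2 called 674, against 194 with limma, so its 2 calls do not set these genes apart. By direction, 34 of 50 were lower after sleep deprivation, against 50.2% of all genes. Their median log2 fold change was -0.14 (all genes -0.00). The median deviation of the 52 genes had an SD of 0.148 over all 16 libraries, those of KO mice included. It stood at 0.065, 0.027, 0.069 and 0.194 in the WT_BL libraries. In the WT_SD libraries it stood at -0.031, 0.031, -0.081 and -0.140, overlapping through WT_BL 2 and WT_SD 2. In bulk tissue, fewer cells of a type and less RNA per cell cannot be told apart.

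Col6a6, an alpha chain of the beaded filaments of type VI collagen, had 18.6, 22.8, 30.4 and 13.1 normalized counts in WT_BL, and 7.997, 8.21, 1.98 and 1.55 in WT_SD. All 4 WT_SD libraries were below all 4 WT_BL libraries, at low counts (2 to 37 reads over the 16 libraries). Its log2 fold change was -2.09 ± 0.480 (SE, n = 4 per group; limma adjusted p = 0.0606). It met the minimum count in that comparison through the WT_BL libraries alone, so it could only have been tested if high there. Col8a1, a short-chain network collagen of vessel walls, had 274.3, 195.1, 262.4 and 230.6 normalized counts in WT_BL and 174.6, 158.5, 115.8 and 164.3 in WT_SD. The groups did not overlap, and the log2 fold change was -0.65 ± 0.156 (limma adjusted p = 0.0687). Loxl2 was also lower in each WT_SD library (70.6, 64.9, 61.3 and 72.1) than in each WT_BL library (80.9, 84.0, 76.5 and 101.3), with a log2 fold change of -0.34 ± 0.149 (limma adjusted p = 0.263). Groups did not overlap for these 3 of 50 genes, against 10.3% of all genes tested.

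In the authors' deposited table, Col8a1 and Col6a6 have a false discovery rate under 0.05 in this comparison, the only 2 of the 52 genes (4.4% of the genes with a value there). The authors' deposited table gives their log2 ratio, baseline over sleep-deprived, as 0.51 and 0.53, with false discovery rates of 0.00546 and 0.00976. For Col6a6 the size differs widely from that of the fit above (-2.09), for Col8a1 less so (-0.65). How the deposited ratios were derived is not stated, so their sizes are not compared with the fits. Col6a6 passed the threshold in 5 of the 15 alternative settings that tested it, among them without WT_SD 2 (limma adjusted p = 0.0458), and Col8a1 in 2 of 21. The adjusted p ranged from 0.00701 to 0.198 for Col6a6 and from 0.00517 to 0.211 for Col8a1.

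By class in WT mice, none of these genes passed the test, and differences between classes were not tested. Fibrillar collagens were lower for 10 of 11 genes (median log2 fold change -0.23), from Col11a1 at -0.38 ± 0.150, a minor fibrillar chain, to Col5a3 at 0.07. Type VI and VII collagens were lower for 5 of 7 (median -0.38), with Col6a1 at -0.38 ± 0.161 and Col6a3 at -0.38 ± 0.165. Fibril-associated collagens, which coat fibrils, were lower for 8 of 9 (median -0.27), the exception being Col20a1 at 0.35. Collagen IV genes stood at -0.01 to 0.13, with Col4a1 at 0.03 ± 0.0779. The proteoglycans had a median of 0.32, with 5 of 7 higher: Omd (osteomodulin) at 0.81 ± 0.304, Dcn at 0.52 ± 0.304, Ogn (osteoglycin) at 0.39 ± 0.212, Prelp (an anchor between basement membrane and tissue) at 0.32 ± 0.189, and Fmod (fibromodulin) at 0.30. Lum and Bgn stood at -0.04 and -0.10. WT_BL 1 and WT_SD 4 were the libraries with the most Ttr. They also held the highest WT_BL value of Dcn (660.1) and its lowest WT_SD value (372.7). Leaving them out, a choice made after seeing the data, therefore enlarges the Dcn difference. In that setting Dcn was called in WT mice with a log2 fold change of 0.97 ± 0.206 (limma adjusted p = 0.0499), the only one of the 52.

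**Figure D4:**
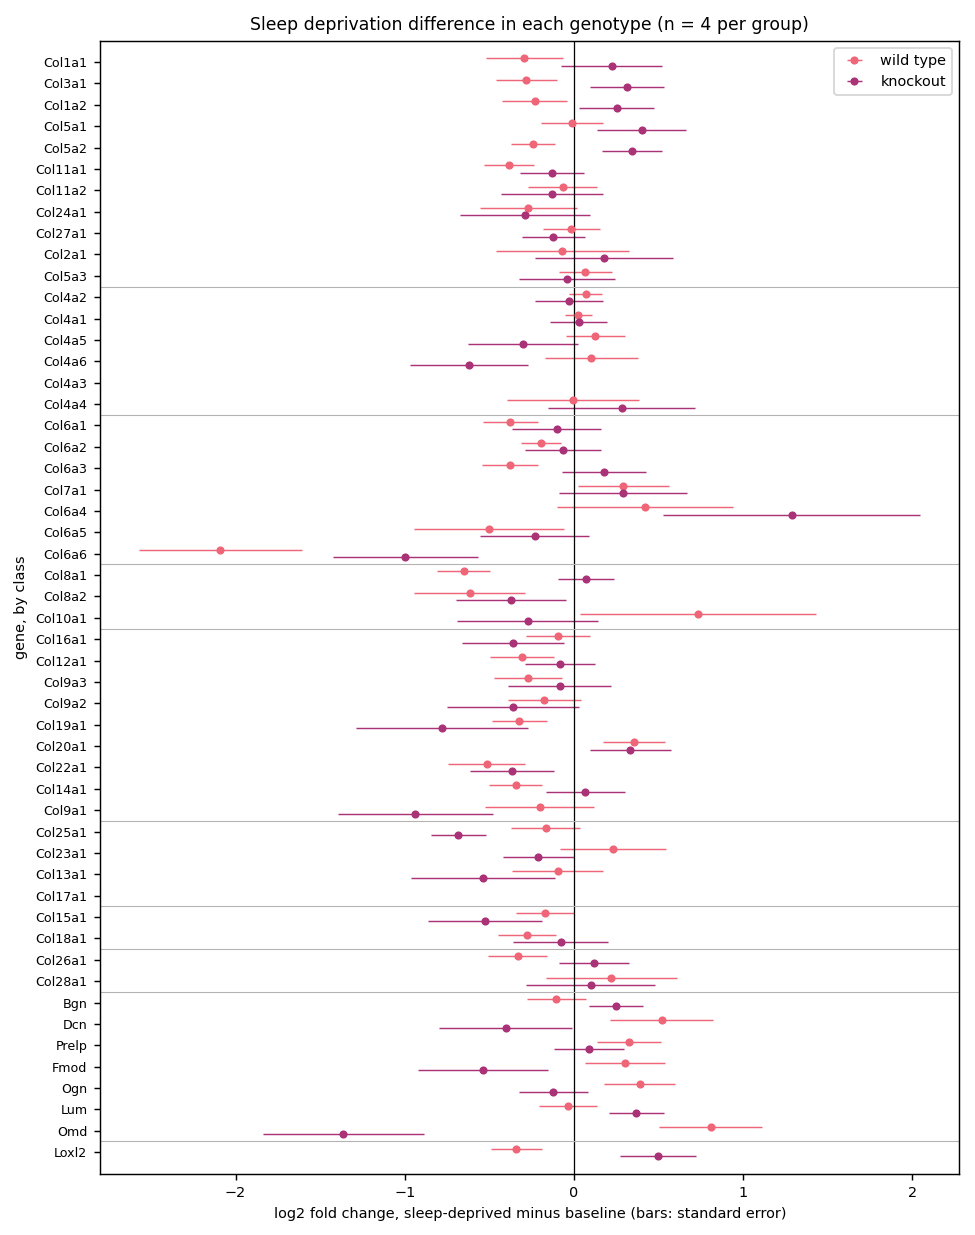
Points are log2 fold changes, sleep-deprived minus baseline, of each tested gene in wild type and in knockout mice, with standard error bars (n = 4 per group); lines separate classes. Col6a6 lies lowest in wild type at -2.09 and Omd lowest in knockout at -1.36, and most bars cross or come near 0.

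In KO mice the same comparison also called 0 of 50 tested genes with limma, against 0.23% of 14318 genes. At an unadjusted p under 0.05 there were 4, Col25a1, Omd, Col6a6 and Lum, against 12.3% of all genes. DESeq2 on recovered reads called Col25a1 and edgeR's quasi-likelihood test called 0. Over all genes DESeq2 also called more than limma here, with the counts given in the closing section. Col25a1 had 1276, 1552, 1193 and 942.6 normalized counts in KO_BL and 880.9, 714.5, 649.3 and 816.2 in KO_SD. Its groups did not overlap, the only such case among the 50 (8.23% of all genes), and the log2 fold change was -0.68 ± 0.164 (limma adjusted p = 0.142). In WT mice Col25a1 stood at 1346, 908.9, 1236 and 678.7 in WT_BL and at 1118, 832.5, 730.2 and 950.0 in WT_SD, groups that overlap. The authors' deposited table gives Col25a1 a false discovery rate of 0.0113 in KO mice and a log2 ratio, baseline over sleep-deprived, of 0.58, the only one of the 52 under 0.05 there (2.07% of the genes with a value).

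Omd had 40.1, 33.9, 32.4 and 10.1 normalized counts in KO_BL and 8.23, 19.65, 7.84 and 6.17 in KO_SD, with a log2 fold change of -1.36 ± 0.474 (limma adjusted p = 0.301). The groups overlapped through KO_BL 4 and KO_SD 2. Omd reached 10 normalized counts in every KO_BL library and, of KO_SD, only in KO_SD 2. It thus met the minimum mainly through the group where it was high. Col6a6 had 15.6, 18.2, 16.2 and 9.37 in KO_BL and 3.53, 8.88, 4.48 and 13.6 in KO_SD, also overlapping, with a log2 fold change of -0.997 ± 0.427 (limma adjusted p = 0.384). By direction, 30 of the 50 genes were lower in KO_SD, against 50.3% of all genes. Fibrillar collagens had a median of 0.18, with 6 of 11 higher, fibril-associated collagens -0.36, with 7 of 9 lower, and proteoglycans -0.12, with 4 of 7 lower. The median over the 50 tested genes was -0.08, and it was 0.10 over 48 genes without KO_BL 1, KO_SD 1 and KO_SD 4. In the KO_SD libraries that then remained, the median deviations of the set were 0.17 and 0.19, among the highest of all libraries. The median had the other sign in 5 of 21 alternative settings. With a single library left out it ranged from -0.20 to 0.039, so the direction of the set in KO mice was not stable.

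Markers of leptomeningeal fibroblasts, cells that make fibrillar collagens and proteoglycans, were mostly lower in KO_SD than in KO_BL. None was called, their sums overlapped, and markers of a cell type are not independent of each other. Of 20 tested marker genes 19 were lower in KO_SD than in KO_BL (median log2 fold change -0.52, 0 called), against 50.3% of all genes. In WT mice 12 of 21 were lower in WT_SD than in WT_BL (median -0.05), against 50.2%. The highest sum was that of KO_BL 2 and the lowest that of KO_SD 1, a library that stood apart over all genes. Their summed normalized count ranged from 3395 to 5442 in WT_BL, 3534 to 4792 in WT_SD, 3148 to 6734 in KO_BL and 2498 to 4782 in KO_SD, and none of the 22 listed genes was at 0 in a library. Endothelial markers were lower for 9 of 12 genes in WT mice (median -0.06) and 8 of 12 in KO mice (median -0.25). Striatal neuron markers were lower for 11 of 11 in WT mice (median -1.12), and hippocampal ones higher for 10 of 10 (median 0.66). The part of these cells and regions in the values of the 52 genes was not tested.

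Over both genotypes, sleep deprivation called 1 of the 52 genes, against 10% of the 14604 genes tested. Col6a6 fell by 1.54 ± 0.335 on the log2 scale (SE, 8 libraries per condition; limma adjusted p = 0.00983). Its log2 fold changes were negative in both genotypes. By direction, 31 of the 52 genes were lower, against 50.7% of all genes. The call held in 28 of 28 alternative settings that tested it, with adjusted p up to 0.0288, and was not tested where a count of 50 in 4 libraries was asked for. Of the 8 libraries in which it reached 10 normalized counts, 7 were baseline libraries and 1 was KO_SD 4, so here too it met the minimum only through the group where it was high. With no minimum its adjusted p was 0.0125 (limma). At an unadjusted p under 0.05 there were 6 of 52, against 27.3% of all genes: Col6a6, Col25a1 (-0.43 ± 0.140, limma adjusted p = 0.0619), Col17a1, Col22a1, Col8a1 and, higher, Col20a1. Col25a1 passed in 6 of 29 alternative settings, with edgeR, with DESeq2, with the replicate number as a block and without WT_BL 4, KO_BL 4 or KO_SD 1 (adjusted p from 0.0194 to 0.0477). Col20a1, a fibril-associated collagen, was called without KO_BL 1, KO_SD 1 and KO_SD 4, at 0.52 ± 0.154 (limma adjusted p = 0.0421). Those libraries held its highest KO_BL value (86.86) and its lowest KO_SD values (79.97 and 65.44), so leaving them out enlarges the rise. Of KO_SD only KO_SD 2 and KO_SD 3 remained, at 98.9 and 97.39. Col17a1, an epithelial transmembrane collagen, was called without KO_SD 3, at -1.59 ± 0.428 (limma adjusted p = 0.0338), against -1.28 ± 0.472 with all libraries (limma adjusted p = 0.0907). KO_SD 3 held its highest sleep-deprived value (14.55), so leaving that library out enlarges the fall. Col17a1 had 0 to 25 reads per library. Of the 6 libraries in which it reached 10 normalized counts, 4 were baseline libraries and the others WT_SD 2 and KO_SD 3.

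**Figure D5:**
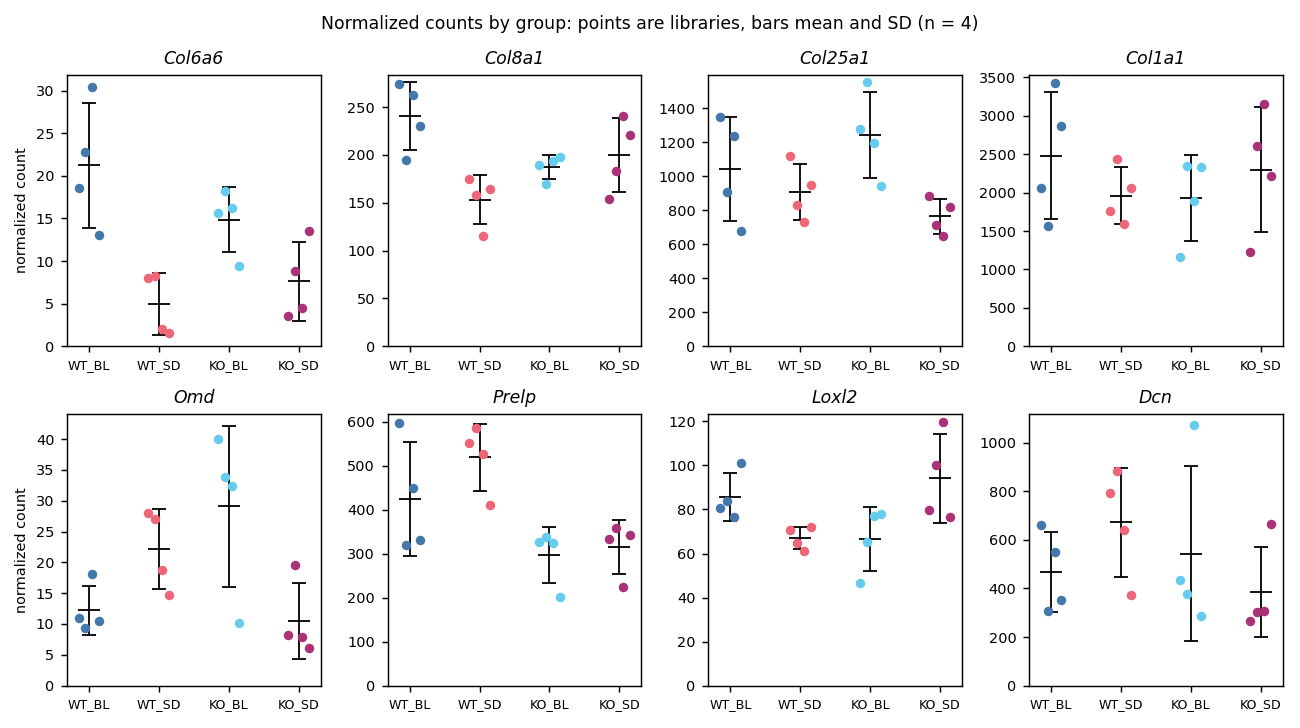
Normalized counts of 8 genes by group; points are libraries and bars the mean and SD (n = 4). Col6a6 is lower in the sleep-deprived libraries of both genotypes, without overlap in wild type only, and Prelp after sleep deprivation is lower in every knockout library than in every wild type one.

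Several enzymes that modify collagen chains before export rose with sleep deprivation. P4ha1, the catalytic subunit of the prolyl 4-hydroxylase that stabilises the collagen triple helix, stood at 977, 883, 908.8 and 904.9 normalized counts in WT_BL and at 1520, 1444, 1483 and 1472 in WT_SD. In KO_BL it stood at 1131, 765.6, 829.2 and 884.2, and in KO_SD at 1679, 1417, 1489 and 1556. No sleep-deprived library overlapped a baseline library in either genotype. Of all genes tested, 6.04% in WT mice and 4.59% in KO mice were higher without overlap. P4ha1 rose in WT mice by 0.69 ± 0.0701 on the log2 scale (limma adjusted p = 0.00106), and over both genotypes by 0.73 ± 0.0739 (limma adjusted p = 2.2e-05). Of 21 listed genes for collagen folding and hydroxylation, 5 rose over both genotypes and 0 fell (median log2 fold change 0.21), against 5.12% of all genes called higher and 4.88% called lower in this comparison. The other 4 were Plod1 (a lysyl hydroxylase, 0.37), P4ha2 (0.28), Fkbp14 (a prolyl isomerase of the endoplasmic reticulum, 0.27) and P4hb (the partner subunit of P4ha1, 0.22), with limma adjusted p from 0.0243 to 0.0458.

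The counts in the following lists stand against 10% of all genes called in either direction. Among 13 tested genes for procollagen processing and cross-linking, Adamts3, which trims procollagen ends, fell by 0.87 (limma adjusted p = 0.00474) and none rose. Of 9 collagen receptors, Itga10, an integrin subunit, rose by 0.94 (limma adjusted p = 0.0015), and it rose by 0.88 in WT mice alone (limma adjusted p = 0.0463). Of 13 collagen-degrading proteases and inhibitors, the inhibitors Timp1 and Timp4 rose by 1.09 and 0.40 and the membrane protease Mmp16 fell by 0.53 (limma adjusted p = 0.0117, 0.025 and 0.0379). Of 15 other basement membrane genes, the laminin chain Lama4 fell by 0.38 (limma adjusted p = 0.0291). Of 14 genes of perineuronal nets and other brain proteoglycans, Acan (aggrecan) rose by 0.56 and Spock1 fell by 0.27 (limma adjusted p = 0.0204 and 0.0491). None of 7 tested other leucine-rich proteoglycans and none of 17 genes of elastic fibres and fibroblast matrix were called in this comparison.

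Genotype called none of these genes. At baseline 0 of 51 tested genes were called between KO and WT mice with limma (0.0139% of 14341 genes), and 4 had an unadjusted p under 0.05 (2.75% of all genes): Col5a2, Col8a1 and Prelp lower in KO mice and Omd higher. At baseline 34 of 51 were lower in KO mice (49.1% of all genes), and groups overlapped for each of them (no overlap for 1.78% of all genes). After sleep deprivation 0 of 49 were called (0% of 14280 genes), and 4 had an unadjusted p under 0.05 (1.62%): Dcn, Omd and Prelp lower in KO mice and Loxl2 higher. Of these, Omd reached 10 normalized counts in every WT_SD library but in KO_SD only in KO_SD 2. It met the minimum there mainly through the group where it was high. Lower values in KO mice were found for 29 of 49 (50.7% of all genes). Over both conditions 0 of 52 were called (0% of 14604 genes), with 1 at an unadjusted p under 0.05 (3.13%), and 32 of 52 were lower in KO mice (49.6% of all genes). DESeq2 and edgeR called 0 of the 52 genes in each of these 3 comparisons. The authors' deposited table has none of the 52 under a false discovery rate of 0.05 at baseline (0.0206% of the genes with a value) or after sleep deprivation (0%). The 2 baseline and sleep-deprived comparisons have no library in common. Both share their libraries with the sleep deprivation comparisons above, so values of the same gene are not independent between them.

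Prelp had the smallest p of the set over both conditions. It stood at 597.8, 320.6, 448.2 and 331.0 normalized counts in WT_BL and at 325.2, 337.8, 325.0 and 201.8 in KO_BL. After sleep deprivation it stood at 551.8, 584.6, 527.4 and 410.7 in WT mice and at 332.8, 358.2, 225.0 and 343.3 in KO mice. The groups overlapped at baseline and did not after sleep deprivation. Its log2 fold change, KO minus WT, was -0.49 ± 0.220 at baseline (limma adjusted p = 0.982), -0.73 ± 0.175 after sleep deprivation (limma adjusted p = 0.9998) and -0.61 ± 0.150 over both (limma adjusted p = 0.992). The difference did not pass in any of 29 alternative settings over both conditions, with adjusted p from 0.102 upward. Choroid plexus markers were lower in KO mice for 11 of 12 genes over both conditions (median -0.70), and their part in the Prelp values was not tested. Loxl2 was the other gene whose groups did not overlap after sleep deprivation (1.35% of all genes), at 80.0, 100.2, 119.8 and 76.6 in KO_SD against the WT_SD values above, a log2 fold change of 0.46 ± 0.186 (limma adjusted p = 0.9998).

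The difference between genotypes in the response to sleep deprivation was tested directly as an interaction, and limma called 0 of the 52 genes (0% of 14604 genes). DESeq2 and edgeR also called 0, and 4 of the 52 had an unadjusted p under 0.05 (1.1% of all genes). The sign was negative for 26 of 52, against 49.7% of all genes. Omd had the smallest p: it stood at 10.9, 9.34, 18.1 and 10.5 in WT_BL and at 28.0, 27.1, 18.8 and 14.7 in WT_SD, the opposite order to that in KO mice. Its interaction, the KO minus the WT log2 fold change, was -2.17 ± 0.584 (limma adjusted p = 0.99996). Loxl2 (0.84 ± 0.261), Col8a1 (0.72 ± 0.228) and Col5a2 (0.59 ± 0.233) had positive interactions, each with a limma adjusted p of 0.99996. In KO mice Col8a1 stood at 189.3, 169.3, 193.4 and 198.2 in KO_BL and at 154.1, 183.2, 240.7 and 221.0 in KO_SD, overlapping groups.

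By class the interaction medians were 0.25 for fibrillar collagens, 0.27 for types VI and VII, -0.44 for transmembrane collagens and -0.51 for proteoglycans, and it was -0.00 over the 52 genes. Without KO_BL 1, KO_SD 1 and KO_SD 4 the median over 51 genes was 0.25, with 37 higher and 14 lower. Over all genes in that setting the median was -0.004, and the share of all genes by sign is not given. Only KO_SD 2 and KO_SD 3 then remain of KO_SD. The median deviation of the 52 genes was among the highest in these (0.17 and 0.19), so a genotype difference cannot be read from this run. The leptomeningeal markers had an interaction median of -0.52, and their part in these values was not tested.

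The most abundant fibrillar genes show how wide the spread within groups was. Col1a1 stood at 2065, 1560, 3424 and 2873 normalized counts in WT_BL, 1766, 2433, 1589 and 2061 in WT_SD, 1158, 2344, 1897 and 2330 in KO_BL, and 1225, 2609, 3153 and 2211 in KO_SD. The groups overlap in every comparison. Its log2 fold change with sleep deprivation was -0.29 ± 0.226 in WT mice and 0.22 ± 0.298 in KO mice (limma adjusted p = 0.537 and 0.785). Col1a2 stood at 1812, 1286, 2583 and 2256 in WT_BL, 1619, 1939, 1360 and 1670 in WT_SD, 1183, 1865, 1809 and 1942 in KO_BL, and 1328, 2052, 2653 and 2153 in KO_SD. Col3a1 stood at 1675, 1159, 2311 and 2026 in WT_BL, 1537, 1509, 1204 and 1487 in WT_SD, 1087, 1483, 1520 and 1797 in KO_BL, and 1171, 1831, 2387 and 2047 in KO_SD. Both were lowest in KO_BL 1 and highest in KO_SD 3, and their groups overlap.

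Col5a1, a chain of the thin fibrils of type V, stood at 950.7, 1288, 1045 and 1799 in WT_BL, 1046, 1515, 1269 and 1109 in WT_SD, 603.6, 886.2, 768.5 and 1270 in KO_BL, and 939.7, 1419, 1538 and 772.9 in KO_SD. Genotypes overlapped in both conditions, with a log2 fold change of -0.33 ± 0.175 in KO against WT mice over both (limma adjusted p = 0.992). Among collagen IV chains, Col4a1 stood at 1248, 1108, 1234 and 1246 in WT_BL, 1265, 1312, 1148 and 1200 in WT_SD, 1016, 1354, 1122 and 1137 in KO_BL, and 1054, 1460, 1381 and 890.2 in KO_SD. Its groups overlap, and the sleep deprivation difference over both genotypes was 0.03 ± 0.0950 on the log2 scale. Col4a2 stood at 1233, 1271, 1248 and 1453 in WT_BL, 1266, 1607, 1376 and 1227 in WT_SD, 1160, 1466, 1126 and 1426 in KO_BL, and 1129, 1658, 1553 and 868.0 in KO_SD. Its groups overlap too, with a difference of 0.02 ± 0.118.

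Among the proteoglycans, Bgn stood at 1391, 875.7, 1619 and 1467 in WT_BL, 1385, 1190, 993.4 and 1324 in WT_SD, 1080, 1245, 1130 and 1242 in KO_BL, and 1003, 1473, 1725 and 1475 in KO_SD. Its groups overlap, with a log2 fold change with sleep deprivation of -0.10 ± 0.176 in WT mice and 0.25 ± 0.161 in KO mice. Dcn stood at 660.1, 308.2, 549.4 and 353.8 in WT_BL, 794.4, 884.2, 640.2 and 372.7 in WT_SD, 436.5, 376.6, 1075 and 287.5 in KO_BL, and 267.0, 304.3, 307.8 and 664.3 in KO_SD. The WT_SD and KO_SD libraries overlap only through KO_SD 4, and the log2 fold change between them, KO minus WT, was -0.83 ± 0.321 (limma adjusted p = 0.9998).

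Ogn stood at 197.8, 126.6, 214.7 and 172.9 in WT_BL, 331.9, 203.6, 238.5 and 169.7 in WT_SD, 222.7, 285.8, 220.7 and 165.7 in KO_BL, and 149.4, 214.3, 242.9 and 213.6 in KO_SD. Its groups overlap in every comparison. Lum stood at 118.0, 92.3, 125.0 and 131.9 in WT_BL, 148.0, 112.5, 98.9 and 98.4 in WT_SD, 89.1, 94.98, 115.4 and 99.5 in KO_BL, and 109.4, 131.9, 134.3 and 140.8 in KO_SD. Only KO_BL 3 reached into the range of KO_SD, with a log2 fold change of 0.37 ± 0.161 (limma adjusted p = 0.389). Loxl2 in KO_BL stood at 46.8, 65.2, 76.9 and 77.8, overlapping KO_SD.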

How the data were processed

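Normalized counts and FPKM of 16 brain cortex libraries came from 4 sheets that the authors deposited. The file headers call the first values normalized counts; they are treated as a signal, and their deposited low values step as whole reads divided by 1 factor per library, which differed between sheets by at most 0.263%. FPKM, per the file headers, served to compare levels between genes. The log2 ratio, p-value and false discovery rate are the authors' own. The GC fraction and gene width are also deposited columns. The submitters' processing notes list RSEM 1.2.19, edgeR, mm10 and GRCm38 without roles, and strandedness and annotation release were not stated.

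In each library 100% of values up to 20 reads were whole within 0.1 read. Any pair of replicates differed by a chi-square of at least 7.66 per degree of freedom, so each library counted as its own animal, as labelled. Comparisons used limma 3.58.1 in R 4.3.3 (trend and robust steps, two-sided) on log2(normalized count + 1), which understates changes of low genes, with Benjamini-Hochberg adjustment over all genes at 10 or more in 4 libraries of the comparison and a threshold of 0.05. Pairwise fits used the 8 libraries of their groups within 1 sheet; pooled and interaction fits used all 16. The fit was also run on simulated counts with known changes. These held no library-wide trends with GC content or length and no libraries made to stand apart, so that run does not cover such effects. As the files hold no counts, edgeR 4.0.16 and DESeq2 1.42.0 on recovered reads were alternatives, beside scaling, pseudocount, minimum count, a single model, a replicate block and left-out libraries. Another 3 were chosen after seeing the data: 2 sets of libraries left out, and each library's GC and length trend removed.

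The genes, lists, pairs and tests were chosen with earlier results of these data known. Values in every library are given for genes called in a comparison, for the 2 with the smallest p in each, and for 10 fixed genes of the main classes; of the pathway lists, genes called are named. Other genes given as single values were named after their values were seen. Promoters and positions are from RefSeq and an annotation, both of GRCm38.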

Additional observations from a re-analysis of the deposited data

Results flagged for a closer look

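Single libraries stood apart within their group, by Dixon's criterion at 95%, for 5 of the 64 groups of 4 tested (16 genes in 4 groups); chance gives about 1 in 20. Col3a1 stood at 1204 normalized counts in WT_SD 3, against 1487 to 1537 in the other WT_SD libraries. Col4a1 stood at 1108 in WT_BL 2, against 1234 to 1248. Dcn stood at 664.3 in KO_SD 4, against 267.0 to 307.8. Omd stood at 19.65 in KO_SD 2, against 6.17 to 8.23. Prelp stood at 201.8 in KO_BL 4, against 325.0 to 337.8.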

How the results depend on the processing

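In WT mice, where 0 of the 50 genes and 194 of all genes were called after sleep deprivation, the number of the 50 called was 1 with a pseudocount of 5 (Col6a6), 2 with DESeq2, 1 without WT_BL 1 and WT_SD 4 (Dcn) and 2 with the GC and length trend removed (Col6a6 and Col8a1). All genes called numbered 674 with DESeq2, 102 without the trend and robust steps, 79 in a single model of 16 libraries and 553 with the GC and length trend removed. In KO mice (0 of 50, 33 of all genes) DESeq2 called 1, Col25a1; all genes called were 309 with DESeq2, 220 in the single model, 383 without KO_BL 1, KO_SD 1 and KO_SD 4 and 234 with the trend removed. Leaving out those 3 libraries moved the median log2 fold change of the set from -0.08 to 0.10 in KO mice, from -0.11 to 0.24 between genotypes after sleep deprivation, and from -0.00 to 0.25 for the interaction. Between genotypes at baseline, 2 genes were called in all, and 0 with a pseudocount of 0.5, 1 with edgeR, 0 without the trend and robust steps, 1 in the single model, 1 without the 3 KO libraries and 0 without WT_BL 1 and WT_SD 4. For sleep deprivation over both genotypes (1 of 52, 1461 of all genes), 0 of the set were called with a minimum of 50, which leaves Col6a6 untested, and 2 with edgeR, with DESeq2 and without the 3 KO libraries; all genes called were 910 without WT_BL 1 and WT_SD 4 and 2675 with the trend removed. Genotype over both conditions called 1 gene with a pseudocount of 5 and 6 with DESeq2, and the interaction 1 with a pseudocount of 5, 1 with DESeq2 and 1 without the 3 KO libraries, against 0 in each. The cause of these shifts was not tested.

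Leaving out 1 library at a time gave 0 to 1 of the set and 46 to 508 genes in WT mice, 0 to 70 genes in KO mice, 0 to 2 genes between genotypes at baseline, and 1 to 2 of the set and 728 to 2369 genes over both genotypes. The lowest and highest counts came without WT_SD 3 and WT_SD 4 in WT mice, KO_BL 2 or KO_SD 3 (0 each) and KO_SD 1 in KO mice, and WT_SD 3 and KO_SD 1 over both. The median of the set ranged from -0.175 to 0.0414 between genotypes after sleep deprivation and from -0.0912 to 0.191 for the interaction. In WT mice Col6a6 could be tested only with all 4 WT_BL libraries. Between genotypes and for the interaction, 0 of the set were called in each alternative run. The labels do not say whether the replicate numbers pair the mice. Same-numbered libraries correlated at -0.421 to 0.411, and some but not all libraries correlated best with their own number. These correlations cannot exclude a pairing. With the number as a block, 1 of the set was called in WT mice and 2 over both genotypes, and 230 and 1663 of all genes. Low counts limit Col6a6, Omd and Col17a1, at 2 to 37, 5 to 41 and 0 to 25 reads per library.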
